A study of Rattus norvegicus with 12 samples.

Results

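Tspan8, Anpep, C2cd4b and Herc4 are 4 genes of the rat pancreas that were grouped because their expression rose when diabetic rats, but not healthy rats, received sodium tungstate. Each gene was measured by 1 probe set of the Affymetrix RAE230-A array, so that these genes were 4 of the 15866 probe sets that are not controls. The choice used the comparisons of treated with untreated animals, and the values of those comparisons are therefore given below as a description, without a test. RNA of the whole pancreas was studied in 4 groups of adult male Wistar rats, with 3 arrays per group and a pool of 3 rats on each array: healthy rats without (HU) and with tungstate (HT), and diabetic rats without (DU) and with it (DT). Diabetes was induced with streptozotocin, a toxin that destroys beta cells, and the DU and DT animals both received it. The sample labels give tungstate at 0.7 g/L for 1 week and at 2 g/L for the next 4 to 5 weeks in the HT and DT groups, and 5 to 6 weeks without treatment in the HU and DU groups, whereas the study's methods name only the higher dose. The labels state that DT animals were treated until glycemia came near normal, whereas the paper describes a partial recovery of glycemia. On these arrays the tungstate and the fall of glycemia cannot be told apart in DT vs. DU. The paper also lowered glycemia in other diabetic rats with phloridzin. By PCR it found no significant change there for most of its selected genes, a set that included Tspan8. Sel1h and insulin were the genes it named as increased with phloridzin. In the tungstate experiment, its PCR gave Tspan8 as unchanged in DU against HU and significantly higher in DT than in DU animals. Because the whole organ was used, more cells of a type and more RNA per cell cannot be told apart.

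The 4 genes encode proteins with different roles. Tspan8 encodes tetraspanin 8, a membrane protein with 4 membrane-spanning segments that assembles with integrins and adhesion proteins at the surface of epithelial cells. Anpep encodes aminopeptidase N, an enzyme of apical membranes that removes the amino acid at the end of peptides. C2cd4b encodes a nuclear protein with a C2 calcium-dependent domain, which is known to be induced by inflammatory cytokines and lies near Vps13c in the genome. Herc4 encodes an E3 ligase of the HECT family, which takes ubiquitin from a conjugating enzyme and passes it to a substrate.

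The promoters of the genes are shown because the genes were grouped by a shared rise, although they lie on different chromosomes (7 for Tspan8, 1 for Anpep, 8 for C2cd4b and 20 for Herc4). The sequences are those of RefSeq on the GRCr8 build, 250 bases up to the start site, read 5′ to 3′ on the strand of the gene. They cover chr7:53330937-53331186 on the plus strand for Tspan8, chr1:143195102-143195351 on the minus strand for Anpep and chr8:77254077-77254326 on the plus strand for C2cd4b, for which the most upstream of 7 listed start sites was taken. The RefSeq table used here gave no promoter for Herc4. Capitals mark matches to a core of the FOXA site (TGTTTAC), of the HNF1 site (GTTAAT) or of the TATA box (TATAAA).
Tspan8: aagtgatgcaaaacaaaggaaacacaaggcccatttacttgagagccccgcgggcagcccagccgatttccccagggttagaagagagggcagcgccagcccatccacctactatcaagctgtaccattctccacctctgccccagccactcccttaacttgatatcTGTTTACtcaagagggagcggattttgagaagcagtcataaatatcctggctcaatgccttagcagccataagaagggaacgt
Anpep: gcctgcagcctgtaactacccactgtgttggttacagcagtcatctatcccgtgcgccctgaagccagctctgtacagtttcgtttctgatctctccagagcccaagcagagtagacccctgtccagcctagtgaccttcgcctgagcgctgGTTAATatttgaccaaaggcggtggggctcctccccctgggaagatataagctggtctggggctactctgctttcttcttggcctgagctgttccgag
C2cd4b: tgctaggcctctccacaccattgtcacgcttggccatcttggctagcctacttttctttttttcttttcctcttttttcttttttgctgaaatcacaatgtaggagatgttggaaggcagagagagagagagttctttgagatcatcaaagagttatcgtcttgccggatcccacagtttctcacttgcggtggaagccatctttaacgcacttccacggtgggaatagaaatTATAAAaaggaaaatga
Each promoter held a different core. The FOXA core began at position -83 from the start of Tspan8, the HNF1 core at -98 from that of Anpep and the TATA box at -17 from that of C2cd4b. Of 33469 promoter windows of the same length, 3.22% held the FOXA core, 6.45% the HNF1 core and 12.9% the TATA box on either strand. The other motifs searched on both strands were CCAAT, the GC box GGGCGG, the AP-1 site TGANTCA, the cAMP response element TGACGTCA and the E-box CANNTG. Of these only the E-box was found, 1 time, in C2cd4b, and no match overlapped another motif. The share of windows with it was 65.5%. These matches describe letters in a window and were not tested for binding.

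Tspan8 was at a low level in every group except DT. Its log2 expression was 5.74, 5.45 and 5.51 in arrays 1 to 3 of HU, 5.46, 5.53 and 5.42 in HT, 5.39, 5.39 and 5.31 in DU, and 7.15, 6.77 and 6.53 in DT. The HU, HT and DU arrays all lay within the lowest 27.3% of the probe sets of their array, a range in which background limits the fold change, and the DT arrays rose to near the middle. Means were 5.36 ± 0.05 for DU and 6.82 ± 0.31 for DT (SD, n = 3 pools each), a 2.74-fold difference. In order of the means, DU was lowest, followed by HT (5.47 ± 0.06), HU (5.57 ± 0.15) and DT, and the HT and HU arrays overlapped. The lowest DT array was 0.80 above the highest of the other 9 arrays on the log2 scale.

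Anpep was lowest in untreated and highest in treated diabetic animals. Its log2 expression was 9.35, 9.57 and 9.67 in HU, 9.59, 9.70 and 9.81 in HT, 8.92, 8.45 and 8.87 in DU, and 10.49, 10.26 and 10.20 in DT. The 3 DU arrays were thus the lowest and the 3 DT arrays the highest of the 12, with the healthy groups between them and overlapping each other. The mean fell from 9.53 ± 0.16 in HU to 8.75 ± 0.25 in DU animals (SD, n = 3 pools), which was -0.78 on the log2 scale (95% confidence interval -1.06 to -0.50, standard error 0.13, limma adjusted p = 0.00474), or 1.72-fold. In DT animals it reached 10.32 ± 0.15, which was 2.97-fold above DU and 1.73-fold above HU. The lowest DT array lay 0.39 above the highest HT array. The choice of the genes favours low DU and high HU values, as set out below.

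C2cd4b was at 8.11 to 8.96 on the log2 scale in the HU, HT and DU arrays and above 9.9 in DT arrays. Its log2 expression was 8.71, 8.56 and 8.11 in HU, 8.96, 8.63 and 8.69 in HT, 8.27, 8.38 and 8.29 in DU, and 9.92, 9.91 and 10.86 in DT. The DU arrays lay within the range of the HU arrays, and array 3 of DT stood apart above the other DT arrays. The means were 8.32 ± 0.06 in DU, 8.46 ± 0.31 in HU, 8.76 ± 0.18 in HT and 10.23 ± 0.55 in DT animals (SD, n = 3 pools), and DT was 3.78-fold above DU. The lowest DT array was 0.95 above the highest HT array. The gene number that the array annotation gives for this probe set was not found in the RefSeq table, and the gene was matched by its symbol.

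Of the 4 genes, Herc4 had the largest DT vs. DU difference and the widest spread between DT arrays. Its log2 expression was 6.42, 6.25 and 6.61 in HU, 6.36, 6.19 and 5.57 in HT, 5.82, 6.06 and 5.26 in DU, and 8.60, 8.94 and 7.36 in DT. Arrays 1 and 2 of DT were well above array 3, which was still 0.75 above the highest of the other 9 arrays. The means were 5.71 ± 0.41 in DU, 6.04 ± 0.42 in HT, 6.43 ± 0.18 in HU and 8.30 ± 0.83 in DT animals (SD, n = 3 pools), a 6.00-fold difference between DT and DU. The DU arrays lay within the lowest 35.2% of the probe sets of their array, where background limits the fold change as for Tspan8. The DU and HT arrays overlapped, as did the HT and HU arrays.

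**Figure D1:**
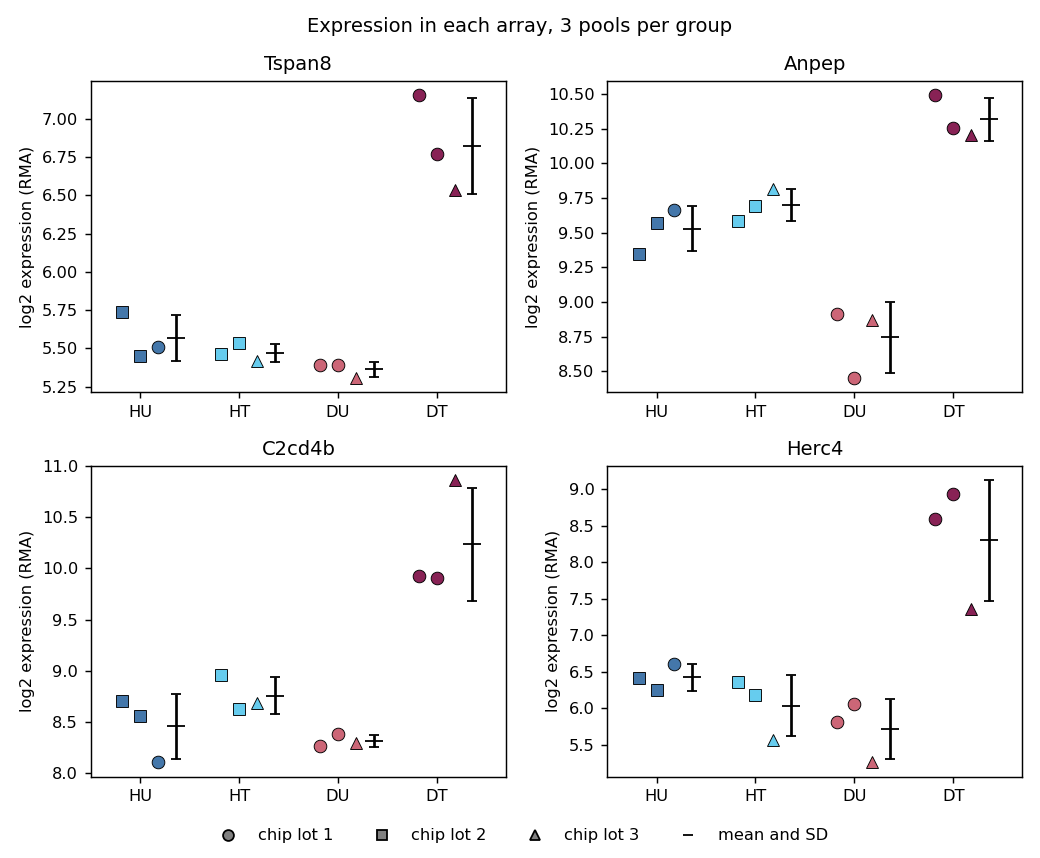
Log2 expression (vertical axis) of each gene in the 12 arrays by group, with 1 point per array, its shape giving the chip lot, and the group mean with its SD beside the points. The 3 DT arrays lie above all other arrays for each gene, Anpep is lowest in the DU arrays, and array 3 of DT is the highest DT array for C2cd4b and the lowest for Herc4.

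DU vs. HU was examined for a difference with diabetes. It was not used for the choice but shares the DU and HU arrays with the comparisons that were. Choosing a rise of DT over DU, but not of HT over HU, favours low DU and high HU values. A negative DU vs. HU difference was thus made more likely, and the p-values of the 4 genes do not allow for this. Of all probe sets, 3.2% passed an adjusted p under 0.05 in DU vs. HU, and 1.73% were lower in DU, and of the 4 genes Anpep passed. For Herc4 the log2 difference was -0.71 (95% confidence interval -1.43 to 0.004, adjusted p = 0.249). For Tspan8 it was -0.20 (-0.48 to 0.08, adjusted p = 0.408), and for C2cd4b -0.14 (-0.61 to 0.32, adjusted p = 0.76). The arrays of DU and HU did not overlap for Anpep, Herc4 and Tspan8, with DU lower, a pattern that 16.9% of all probe sets showed. The call of Anpep was kept on leaving out any of the 12 arrays (adjusted p from 0.00478 to 0.0249) and when chip lot was blocked (log2 fold change -0.91, adjusted p = 0.0172). When scan day was blocked the call was lost (-1.09, adjusted p = 0.245), in a fit where no scan day held both DU and HU arrays. Within chip lot 1, the log2 difference of DU arrays 1 and 2 from HU array 3 was -0.98 for Anpep, -0.67 for Herc4, -0.12 for Tspan8 and 0.22 for C2cd4b.

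In DT vs. DU, 0.655% of all probe sets passed an adjusted p under 0.05 with a higher level in DT animals, 7.58% had DT arrays that were all above the DU arrays, and 1.23% had every DT array above the 9 other arrays, as the 4 genes did by their choice. By the size of the difference the genes ranked 5 (Herc4), 6 (C2cd4b), 7 (Anpep) and 10 (Tspan8) among the 15866 probe sets, after Tff2 and probe sets of the pancreatic amylases. The scans took place on 6 days, with chips of 3 lots, and each gene was higher in DT wherever a day or lot held both groups. Within scan day 1, DT arrays 1 and 2 exceeded DU array 1 by 1.57 for Tspan8, 1.46 for Anpep, 1.65 for C2cd4b and 2.95 for Herc4 on the log2 scale. Within chip lot 3, DT array 3 exceeded DU array 3 by 1.23, 1.34, 2.57 and 2.10, in the same order. The difference was thus larger within chip lot 3 than within scan day 1 for C2cd4b and smaller for the other genes. When 1 array was left out, the DT minus DU difference lay between 1.29 and 1.60 for Tspan8, 1.43 and 1.66 for Anpep, 1.60 and 2.08 for C2cd4b and 2.26 and 3.05 for Herc4.

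The differences between healthy animals with and without tungstate were small. The log2 difference of HT vs. HU was -0.09 for Tspan8, 0.17 for Anpep, 0.30 for C2cd4b and -0.39 for Herc4, and the HT and HU arrays overlapped for all 4 genes, whereas 5.74% of all probe sets had all HT arrays above and 5.83% all HT arrays below the HU arrays. Only 1 of the 15866 probe sets (0.0063%) passed an adjusted p under 0.05 in this comparison by limma, against 859 (5.41%) at an unadjusted p under 0.05 and 0 by the B-statistic. For C2cd4b the value was 0.69 within the scan day that HT arrays 1 and 2 shared with HU array 3, and 0.16 within chip lot 2. For Herc4 it was -0.34 and -0.06. Healthy and diabetic animals drank the tungstate solution freely, and the study's methods give a higher daily intake for the diabetic animals, so that diabetes and intake cannot be told apart in DT vs. HT. DT animals were 2.55-fold higher for Tspan8, 1.54-fold for Anpep, 2.78-fold for C2cd4b and 4.79-fold for Herc4 than HT animals. Every DT array lay above the HT arrays and the other arrays, as for 1.23% of all probe sets. The genes were chosen for a rise in DT, so this was not tested. DT array 3 and HT array 3 were scanned on the same day and came from the same lot, and their log2 difference was 1.12 for Tspan8, 0.39 for Anpep, 2.18 for C2cd4b and 1.79 for Herc4.

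**Figure D2:**
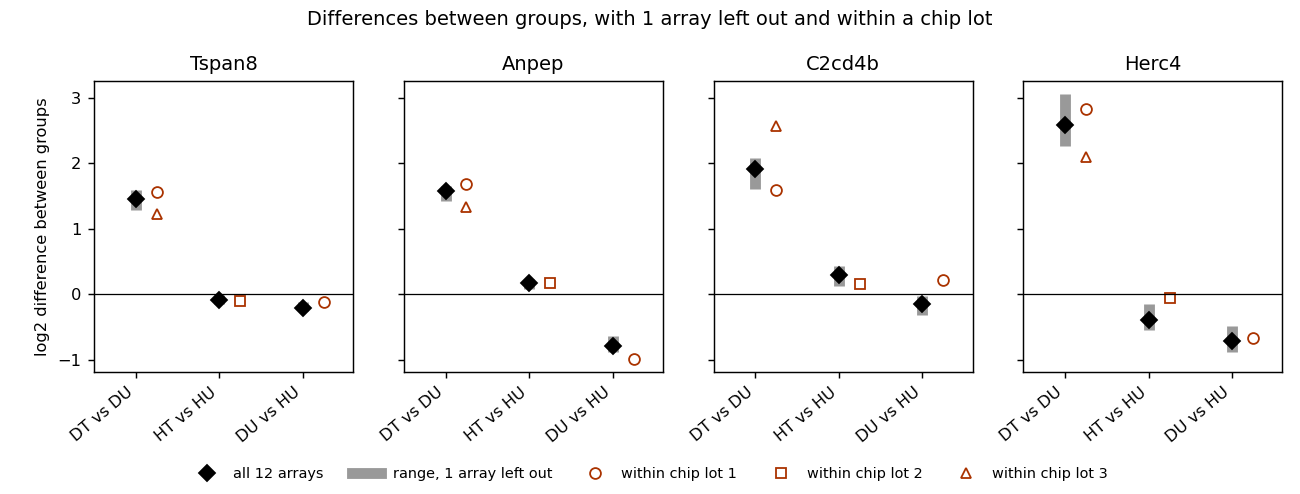
Log2 difference between groups (vertical axis) in 3 comparisons for each gene, with the value over all arrays, the range on leaving out 1 array and the values within a chip lot that held both groups. All values of DT vs. DU lie above 1, and those of HT vs. HU lie between -0.55 and 0.43. Those of DU vs. HU lie below 0 for Anpep and Herc4 and, by less, for Tspan8, of which only Anpep passed an adjusted p under 0.05. The ranges are not confidence intervals.

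Within the groups the genes varied in different ways. Herc4 and Tspan8 were lowest in the chip lot 3 array of HT, of DU and of DT, a pattern that 8.43% of all probe sets showed. For Herc4 the log2 difference of the chip lot 3 array from the mean of the other arrays of its group was -0.71 in HT, -0.68 in DU and -1.41 in DT. This was noticed after the values were seen. C2cd4b ran the other way in DT animals, where array 3 was 0.95 above the others. For deviations from the group means over the 12 arrays, which share lots and scan days, the correlation was 0.57 between Tspan8 and Herc4 and -0.64 between C2cd4b and Herc4, and it was between -0.54 and 0.13 for the other pairs. Marker levels also differed between the DT arrays. The mean log2 level of 10 islet markers was 8.36, 8.02 and 9.02 in DT arrays 1 to 3, that of 9 stellate and fibroblast markers 7.14, 7.28 and 7.84, and that of 9 leukocyte markers 6.86, 7.13 and 7.64. DT array 3 was therefore the highest DT array for these markers and for C2cd4b, and also for the endothelial and adipocyte markers. It was the lowest DT array for Tspan8, Anpep and Herc4 and for 3 other marker sets. In DT arrays 1 to 3 these were 13.53, 13.48 and 13.39 for acinar markers and 6.73, 6.41 and 6.26 for intestinal markers. For hepatocyte markers they were 6.92, 6.96 and 6.75. The duct markers were lowest in DT array 2. In the DU arrays the stellate and fibroblast markers lay between 7.69 and 7.96 and the leukocyte markers between 7.22 and 7.59. The part of these markers in the values of the 4 genes was not tested.

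The tissue label was checked on markers. The acinar markers had mean log2 levels of 13.06 to 13.53 over the 12 arrays, and of 10 islet markers Ins1, Ins2, Iapp and Slc2a2 fell in DU vs. HU, whereas Sst, the somatostatin gene, rose (log2 fold change 1.32, adjusted p = 0.0217). Ins2, the insulin 2 gene, fell from 13.34 in HU to 8.63 in DU and was at 10.08 in DT animals (adjusted p = 1.4e-06 and 0.0387). It was the only islet marker that passed in DT vs. DU by limma (1.12% of all probe sets passed). Ins1 differed by 0.86 (adjusted p = 0.16), Ppy by 0.70 (0.448), Pyy by 0.37 (0.279) and Iapp by 0.36 (0.763). Pdx1 differed by 0.05 (0.933), Slc2a2 by 0.01 (0.995), Chga by -0.14 (0.831), Gcg by -0.16 (0.932) and Sst by -0.96 (0.177). Of the 10 islet markers 7 were higher in DT, and 5 had an unadjusted p under 0.05 (9.89% of all probe sets). Since Anpep and Tspan8 are also expressed in the intestine, intestinal markers were examined. None of 8 passed in DT vs. DU by limma (0 at an unadjusted p under 0.05 and 0 by the B-statistic), and their mean level was 6.41 to 6.64 in DU and 6.26 to 6.73 in DT arrays. None of 7 endothelial, 9 leukocyte or 9 stellate and fibroblast markers passed either (1.12% of all probe sets passed). At an unadjusted p under 0.05 there were 2, 1 and 3 (9.89% of all). Only 1 of the 9 stellate and fibroblast markers was higher in DT, with a median log2 difference of -0.37 and a lowest of -1.01. Among the 9 leukocyte markers 1 was higher, with a median of -0.12. The median over all probe sets was 0.005. The endothelial markers lay between 6.58 and 6.62 in DU and between 6.41 and 6.73 in DT arrays. Of 8 duct markers, Sctr, the secretin receptor gene, rose (log2 fold change 0.90, adjusted p = 0.0069) and Spp1, which encodes osteopontin, fell (-0.53, adjusted p = 0.0319). The share of all probe sets that passed was 1.12%.

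The family of Tspan8 was examined next. Of 23 other measured tetraspanins, none passed in DT vs. DU by limma (1.12% of all probe sets passed), with 5 at an unadjusted p under 0.05 (9.89% of all) and 0 by the B-statistic (1.05% of all), and their log2 differences ran from -0.52 to 0.45 with a median of -0.05 (0.005 over all probe sets). The smallest adjusted p was that of Tspan6 (log2 difference -0.36, adjusted p = 0.23), followed by Tspan12 (-0.51, 0.244), Tspan18 (0.30, 0.333) and Cd53 (-0.52, 0.432), a tetraspanin of leukocytes. In DU vs. HU, where 1.73% of all probe sets were called lower, 3 of the 23 fell: Tspan3 by 2.27-fold (adjusted p = 0.00405), Tspan7 by 1.72-fold (0.0318) and Cd81 by 1.48-fold (0.032), Cd81 being named after its value was seen. When scan day was blocked, Tspan3 (log2 difference -0.31, adjusted p = 0.893) and Tspan7 (-0.14, 0.955) no longer passed, nor did they when chip lot was blocked (-1.11, adjusted p = 0.0544, and -0.86, 0.0917). Tspan7 was also lost on leaving out HU array 1 or 3 or any DU array, with log2 differences of -0.83 to -0.68 against -0.79 over all arrays. By the B-statistic only Tspan3 of the 23 passed in DU vs. HU, and Cd81 was not examined in the other fits. Of 12 partners of tetraspanins, among them integrins and adhesion proteins, none passed in DT vs. DU (1 at an unadjusted p under 0.05, 0 by the B-statistic), with values of -0.26 for Itgb1, 0.28 for Itgb4 and 0.38 for Cdh1, the E-cadherin gene. Epcam, an epithelial adhesion protein that binds tetraspanin 8, differed by 0.10.

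Another surface peptidase, Dpep1, rose with tungstate in diabetic animals. Of 32 other aminopeptidases and surface peptidases, Dpep1 was the one that passed in DT vs. DU by limma (1.12% of all probe sets passed). At an unadjusted p under 0.05 there were 7 (9.89% of all), and 1 by the B-statistic (1.05% of all). The median of the list was 0.01 (0.005 over all probe sets). Dpep1 encodes a membrane dipeptidase that splits dipeptides, among them a product of glutathione breakdown. Its group means were 9.49 ± 0.01 for DU, 9.86 ± 0.04 for HT, 9.91 ± 0.06 for HU and 10.16 ± 0.05 for DT (SD, n = 3 pools each). Dpep1 fell 1.34-fold with diabetes (adjusted p = 0.00474), and with tungstate in diabetic animals it rose 1.59-fold (0.67 on the log2 scale, standard error 0.07, adjusted p = 0.000131), and the order of its groups, DU lowest, HT and HU between and DT highest, was like that of Anpep. The other Dpep1 probe set, at a low level of 5.77 in DU and 5.99 in DT, did not pass (0.23, adjusted p = 0.582). Ggt1, which encodes the enzyme that starts the breakdown of glutathione outside cells, differed by 0.38 (adjusted p = 0.253), Cpd, a carboxypeptidase, by -0.39 (0.265) and Ece1, which activates endothelin, by 0.28 (0.379). Dpp4, Enpep, Mme and Lnpep, well-known surface peptidases, differed by 0.01, 0.01, 0.07 and 0.08.

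The families of C2cd4b and Herc4 gave counts near the 1.12% of all probe sets that passed in DT vs. DU. Of 31 genes for C2 domain proteins, most of them synaptotagmins and other regulators of vesicle fusion, none passed by limma (2 at an unadjusted p under 0.05, 0 by the B-statistic), and the values ran from -0.16 to 0.32 with a median of 0.01. Syt17 differed by 0.32 (adjusted p = 0.42), Sytl2 by 0.27 (0.501) and Doc2b by 0.22 (0.577). In DU vs. HU, Cadps, which primes secretory vesicles in endocrine cells, fell 1.70-fold (log2 fold change -0.77, adjusted p = 0.0075), and when scan day was blocked the value was -0.70 (adjusted p = 0.455). Of 15 other HECT ligases, none passed (2 at an unadjusted p under 0.05, 0 by the B-statistic), with values from -0.28 to 0.27 and a median of -0.03. Those of Herc1, Herc2 and Herc3, the relatives of Herc4 on the array, were 0.03, -0.06 and -0.05, and Nedd4l, a ligase for membrane channels, differed by 0.27 (adjusted p = 0.401).

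**Figure D3:**
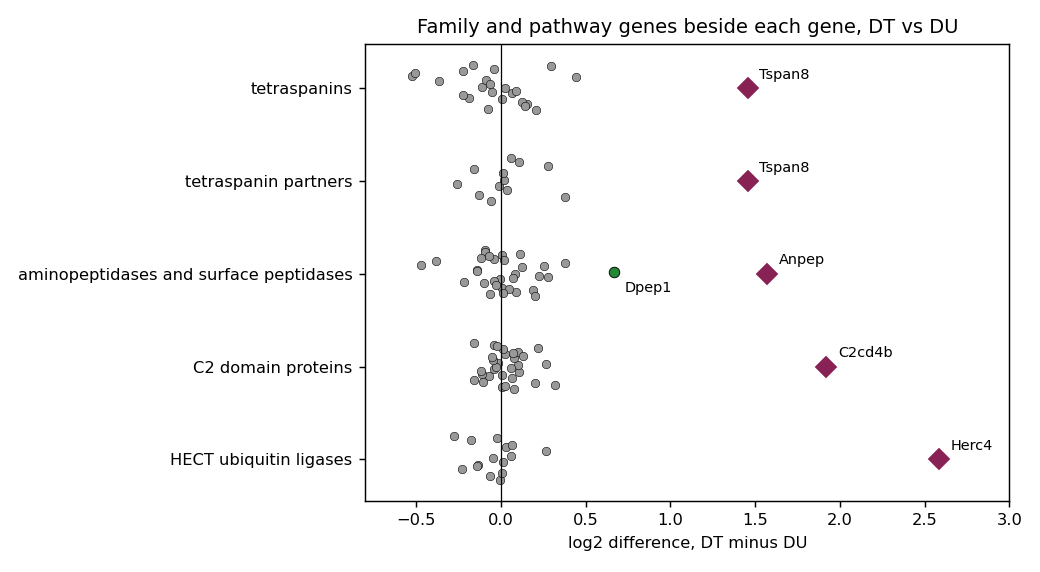
Log2 difference between DT and DU animals (horizontal axis) of the other measured members of 5 gene lists, 1 point per gene, with the gene that each list belongs to as a diamond. Dpep1 is the only green point and the only list gene past an adjusted p of 0.05, and all 5 lists centre near 0.

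The neighbouring genes on the chromosomes were examined next. For each gene the 3 nearest measured protein-coding genes on either side were taken by their order in the RefSeq annotation, a choice made after the values of the 4 genes were seen. Of these 24 genes none passed in DT vs. DU by limma (2 at an unadjusted p under 0.05, 0 by the B-statistic, against 1.12%, 9.89% and 1.05% of all probe sets), and none in DU vs. HU, where 3.2% of all passed. Their DT vs. DU values ran from -0.37, for Ptprb, to 0.18, for Zfc3h1, both among the nearest measured genes of Tspan8. Vps13c, near C2cd4b, differed by 0.13 (adjusted p = 0.697), Ap3s2 beside Anpep by 0.10 (0.858) and Mypn beside Herc4 by -0.01 (0.995).

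Several genes had a pattern close to that of the 4 genes over the 12 arrays, as measured by Pearson's correlation of log2 expression, which here mostly follows the differences between groups. Tspan8 was nearest to Ctdspl (r = 0.95), Acy3 (0.95), Herc4 (0.94), Sat1 (0.93) and S1pr5 (0.93). Herc4 in turn was nearest to Capn6 (0.95), Ctdspl (0.94), Tspan8 (0.94), Pls1 (0.93) and Cers2 (0.93), so that Tspan8 and Herc4 were each among the 5 nearest genes of the other. C2cd4b was nearest to Dusp6, whose product is an Erk phosphatase, with both of its probe sets (r = 0.94 and 0.91), then to Sat1 (0.94), a gene of polyamine breakdown, Acy3 (0.91), an aminoacylase, and Ankrd24 (0.90). For 1 Dusp6 probe set the mean was 8.44 ± 0.19 for DU and 9.99 ± 0.77 for DT (SD, n = 3 pools each), and like C2cd4b it was highest in DT array 3. Anpep was nearest to Tgfb3 (0.96), a growth factor, Gtf3c5 (0.95), Dpep1 (0.94), Xbp1 (0.94), a transcription factor of the unfolded protein response, and Cuzd1 (0.93), a zymogen granule protein. These genes, like Anpep, had lower means in DU than in HU animals, with log2 differences of -0.39 for Tgfb3, -0.57 for Xbp1 and -0.51 for Cuzd1. Besides the 4 genes themselves, those near Tspan8, Herc4 and C2cd4b also had lower means in DU. Their log2 differences ran from -0.31 for Capn6 and -0.29 for Pls1 to -0.07 for Acy3 and -0.004 for Sat1.

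**Figure D4:**
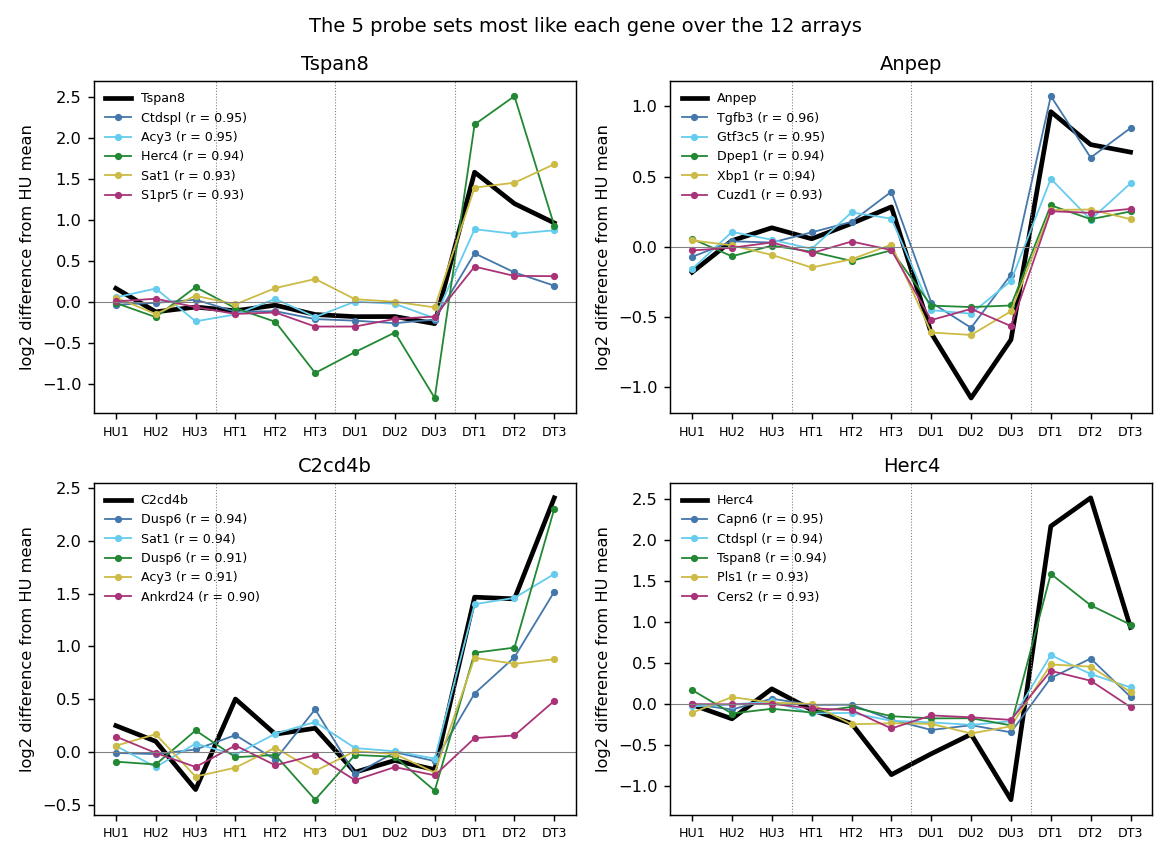
Log2 difference from the HU mean (vertical axis) in each of the 12 arrays (horizontal axis) for each gene (black) and for the 5 probe sets most like it, with r in the legend; the lines only link the points. The genes near Anpep and those near Herc4 have their lowest mean in DU and their highest in DT animals. The genes near C2cd4b have their highest mean in DT animals, with Dusp6 highest in DT array 3.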

How the data were processed

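RNA of the whole pancreas was measured on 12 RAE230-A arrays in 4 groups taken from the sample titles, with a pool of 3 rats per array. RMA in the Affy package, with background adjustment and quantile normalization, was used by the authors, and the deposited log2 expression values were taken as given. No version of the package is given in the sources used here. Array medians were 6.63 to 6.70. The number of arrays limits the precision, as arrays have no read depth. Scan days and chip lots came from the array records. Of 15923 probe sets, 57 controls were left out.

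One mean per group was fitted to the other 15866 probe sets with limma 3.58.1 in R 4.3.3, with Benjamini-Hochberg adjustment over all of them for each comparison. The p-values measure the spread between pools. A call was an adjusted p under 0.05, and the study's criterion, a B-statistic over 0, was an alternative, here with a prior proportion of 0.01, limma's default. The platform annotation gave 12783 probe sets 1 symbol, 312 several and 2771 none. A list gene entered by its probe set with the highest mean. For each list, the genes named were the 4 with the smallest adjusted p in DT vs. DU and 2 more in DU vs. HU, or a choice among these, and other names serve as reference. The 4 genes and the lists were chosen with earlier results of these data known. The replicate numbers of the titles did not pair the arrays.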

Additional observations from a re-analysis of the deposited data

Results flagged for a closer look

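The change with tungstate in diabetic minus that in healthy animals was 0.72 for Dpep1 on the log2 scale, and this difference passed the interaction test of limma (adjusted p = 0.00359), whereas 0.422% of all probe sets passed it. For Tspan8 the same quantity was 1.55 and for Herc4 2.97, with every DT array above the DU mean and every HT array below the HU mean. These differences were not tested, since the genes were chosen for them, and the HT and HU arrays overlapped.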

How the results depend on the processing

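In every fit run, the DT vs. DU log2 differences were 1.29 to 1.60 for Tspan8, 1.43 to 1.66 for Anpep, 1.60 to 2.08 for C2cd4b and 2.26 to 3.05 for Herc4. Tspan8 and Herc4 were left out of the fit without dim probe sets, and so gave no value there. When scan day was blocked, Anpep in DU vs. HU was at -1.09 (log2) and no longer passed (adjusted p = 0.245). The log2 difference of C2cd4b in the same comparison, which was not called, turned to 1.22 with the scan day and to 0.069 with the chip lot as a block (adjusted p = 0.202 and 0.922). In HT vs. HU, the scan day as a block moved Anpep to -0.024 and C2cd4b to 0.69, and the chip lot as a block moved Herc4 to -0.045. Blocking on scan day, 1 tetraspanin passed in DT vs. DU (Cd53, log2 difference -0.91, adjusted p = 0.0325), and 2 peptidases, Dpep1 (0.67, 0.0352) and Tpp1 (-0.74, 0.0268), the latter named after its value was seen. Leaving out 1 array gave 0 to 1 tetraspanins, the 1 being Tspan6 without DT array 3 (-0.48, adjusted p = 0.0456). With scan day blocked, DU arrays 2 and 3 were each alone on their day. In that fit DT vs. DU therefore rested on DT arrays 1 and 2 against DU array 1. No scan day held both DU and HU arrays, so DU vs. HU in that fit was linked through the treated groups. The links were DU array 1 with DT arrays 1 and 2, and DT array 3 with HT array 3. The last was HT arrays 1 and 2 with HU array 3. The DU vs. HU values of that fit thus drew on the DT values used for the choice. Beyond this, the cause of the changes was not tested. For the list genes named, 429 of 442 values under alternatives stayed on the same side of the threshold and kept their sign, 11 lost the call and 2 gained it. Same-numbered arrays of different groups did not deviate together (r from -0.29 to 0.31, over 0.1 in 5 of 18 pairs, and 6 of 12 arrays correlated best with their own number). With the replicate number as a block, Anpep stayed at -0.78 in DU vs. HU with its call (adjusted p = 0.00783), and no other call of the 4 genes or of the list genes named changed. The precision rests on 3 pools per group, and low signals of Tspan8 and Herc4 outside DT limit their fold changes.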
